A study of Mus musculus with 6 samples.

Results

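The genes described here are 41 mouse genes of serine, one-carbon and amino acid metabolism, chosen by symbol: enzymes that make serine, carry folate-bound carbon units, build or transaminate amino acids, transporters, cytosolic tRNA synthetases, and the transcription factor gene Atf4 with a few genes of its stress response. A probe set counted only if the platform annotation gave it 1 of these symbols alone. Of the 41, 40 had at least 1 such probe set (86 in all), Pycr1 was not analysed here, and 37 passed the filter on low signals, out of 11529 genes tested on the arrays. No measured value enters the choice of symbols, but the list was drawn up with earlier DKO against WT results of these arrays known, so counts and medians over it are descriptions.

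The study compared mice lacking Nr4a1 and Nr4a3 (double knockout, DKO) with wild-type (WT) mice, to look for transcripts in blood-forming cells that depend on these nuclear receptors. DKO mice came from crosses of the single knockouts on a hybrid of C57BL/6 and 129SvJ; no strain is given for WT. The RNA was from bone marrow cells of tibia and femur sorted as lineage-negative and Sca1-positive, 3 pools of 10 to 20 animals aged 2 to 3 weeks for each genotype, with 1 Affymetrix array for each pool. The deletions are present in all cells of the animal, and the labels call the sorted fraction enriched for stem cells.

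Serine is made from a glycolytic intermediate in a short chain of reactions, and its side carbon is passed to folate, mainly in mitochondria, to supply purine, thymidine and methyl group synthesis. ATF4 is a transcription factor whose translation rises when cells lack amino acids or carry unfolded proteins, and it is known to raise transcripts of serine and asparagine synthesis, amino acid uptake and tRNA charging. Blood-forming stem cells are known for a low rate of protein synthesis. ATF4 protein itself was not measured here.

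ATF4 binds with C/EBP partners at a composite element with the core TGATGNAA, where N is any base. This core was searched on both strands of the RefSeq promoters of build GRCm38.p6, each running from 250 bases before to 50 after a gene start. Of the 41 genes, 33 had a promoter in that table, and 12 of these (36.4%) held at least 1 match, against 4.51% of all 27025 genes in it. The list includes known ATF4 targets, so a share above that of all genes follows from the choice of genes and is no test. The 14 matches are shown because they tell which of the genes carry the element that ATF4 is known to use. Each is given on the strand that reads as the core, with the core in capitals and 6 bases on either side.
Asns, chr6:7693219-7693238, minus strand: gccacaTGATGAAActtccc
Got1, chr19:43524694-43524713, plus strand: cttgtaTGATGCAAccaatg
Pycr1, chr11:120643838-120643857, minus strand: tgtgtaTGATGCAAtgcaca
Chac1, chr2:119351043-119351062, minus strand: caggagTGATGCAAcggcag
Trib3, chr2:152344033-152344052, plus strand: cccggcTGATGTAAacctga
Slc7a11, chr3:50443666-50443685, minus strand: tgtggcTGATGCAAacctgg
Slc7a11, chr3:50443647-50443666, plus strand: gcatgaTGATGCAAattctc
Slc1a4, chr11:20332704-20332723, plus strand: tggagaTGATGCAAcgcagg
Aars, chr8:111033724-111033743, minus strand: ctcggcTGATGCAAtgctca
Aars, chr8:111033845-111033864, minus strand: gcgctcTGATGAAAagtgac
Gars, chr6:55037965-55037984, minus strand: ggtgcaTGATGAAAtagcgc
Yars, chr4:129189900-129189919, plus strand: ctcagcTGATGCAAcccgac
Iars, chr13:49682131-49682150, minus strand: tggaggTGATGCAAtactga
Tars, chr15:11399660-11399679, plus strand: accagcTGATGCAAcgggac
Of the 14 cores, 10 read TGATGCAA, 4 lay on the strand of the gene and 10 on the opposite one. With TGATGCAA alone, 9 of the 33 genes matched (27.3%, against 1.03% of all genes). A match here is a string of letters and not a measured binding site, and a gene without one may carry the element outside this window. The promoter of Asns, the asparagine synthetase gene in which such an element has been studied at length, is given whole, with the core in capitals and the gene start 250 bases from its first letter.
Asns promoter, chr6:7693160-7693459, minus strand: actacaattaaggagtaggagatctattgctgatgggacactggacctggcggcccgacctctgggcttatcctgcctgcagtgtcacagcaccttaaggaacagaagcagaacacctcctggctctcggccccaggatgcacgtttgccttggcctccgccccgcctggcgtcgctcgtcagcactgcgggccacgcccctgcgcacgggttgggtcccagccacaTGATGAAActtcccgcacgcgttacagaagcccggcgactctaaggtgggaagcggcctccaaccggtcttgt

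**Figure D1:**
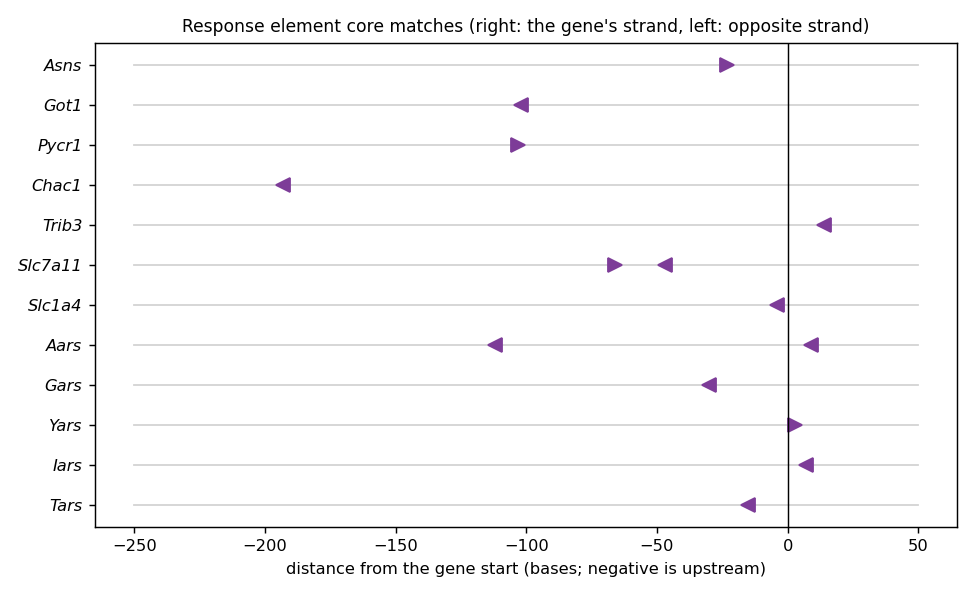
Positions of the 14 TGATGNAA matches in the 12 promoters that hold one, with the distance from the gene start in bases on the x axis and 1 gene per row. Triangles to the right mark matches on the gene's strand and triangles to the left the opposite strand. Matches run from 193 bases upstream in Chac1 to 14 bases downstream of the start in Trib3.

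By role, the core was found in 5 of the 7 tRNA synthetase genes with a promoter (Aars, Gars, Yars, Iars and Tars), in the transporter genes Slc7a11 and Slc1a4, in Asns and Got1, in Pycr1, and in the stress effector genes Chac1 and Trib3. None was found in the 3 serine synthesis genes or the 5 folate enzyme genes searched. The E-box CACGTG, read alike on both strands, stood in 5 of the 33 promoters (15.2%, against 8.09% of all genes), those of Aldh18a1, Cbs, Aars, Iars and Tars, and overlapped 0 of the TGATGNAA matches.

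On the arrays most of the 41 genes had more signal in DKO than in WT cells, by modest amounts. The samples are bulk RNA, so fewer cells of a type and less RNA per cell cannot be told apart. Among the 37 tested, 34 had a log2 difference above 0 on the log2(signal + 16) scale, DKO minus WT, and the median was 0.60. Over all 11529 genes tested 49.2% were above 0 and the median was -0.01. With no filter on low signals the count was 37 of 40 and the median 0.66. The median lay between 0.52 and 0.72 with 1 array left out.

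Psat1, Mthfd2 and Bcat1 rose in DKO (3 of 37, 8.11%, past an adjusted p of 0.05 in limma's test over all probe sets), where 1.08% of all genes rose and 1.71% changed in either direction. The count that fell was 0 of 37, against 0.633% of all genes. In 20 of the 37 genes (54.1%) every DKO array lay above every WT array, as in 10.7% of all genes, and in 0 did every DKO array lie below, against 11.3%. The calls were not stable with single arrays left out. The number of risen genes was 0 without any 1 of the DKO replicates and 0 without WT replicate 1, 2 without WT replicate 3 and 4 without WT replicate 2. It was also 0 without an intensity trend in the variance. All genes past the threshold changed as well, from 197 to 71, 97 and 53 without DKO replicates 1 to 3. Without WT replicates 1 to 3 they numbered 71, 268 and 173. The p-values rest on the spread between 3 pools of animals for each genotype. In limma each variance was also drawn toward an intensity trend over all tested probe sets.

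**Figure D2:**
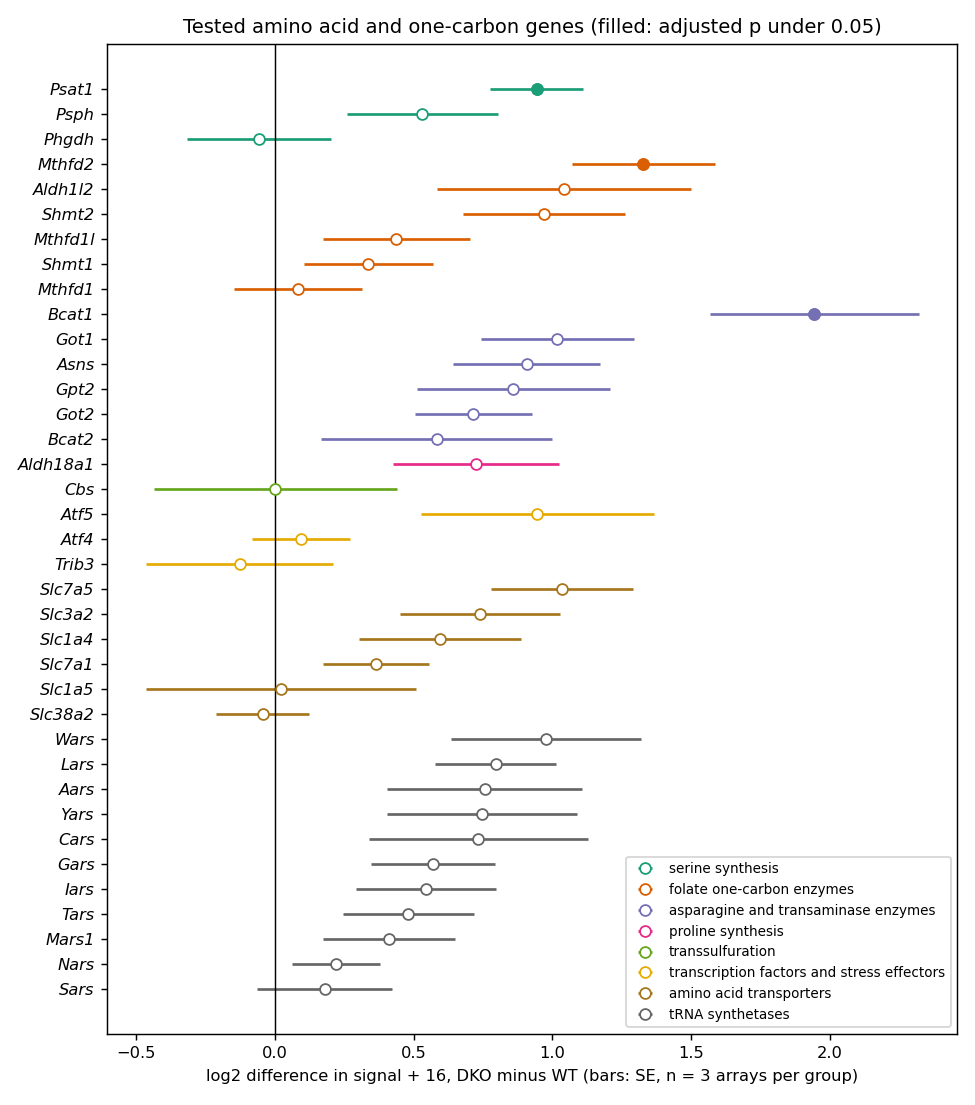
Log2 difference in signal + 16, DKO minus WT, for the 37 tested genes, grouped by role, with standard errors from 3 arrays per group. Filled points are Psat1, Mthfd2 and Bcat1, the 3 genes past the threshold. Of the 37 points, 34 lie right of 0, with Trib3 the lowest at -0.13 and Bcat1 the highest at 1.94.

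**Figure D3:**
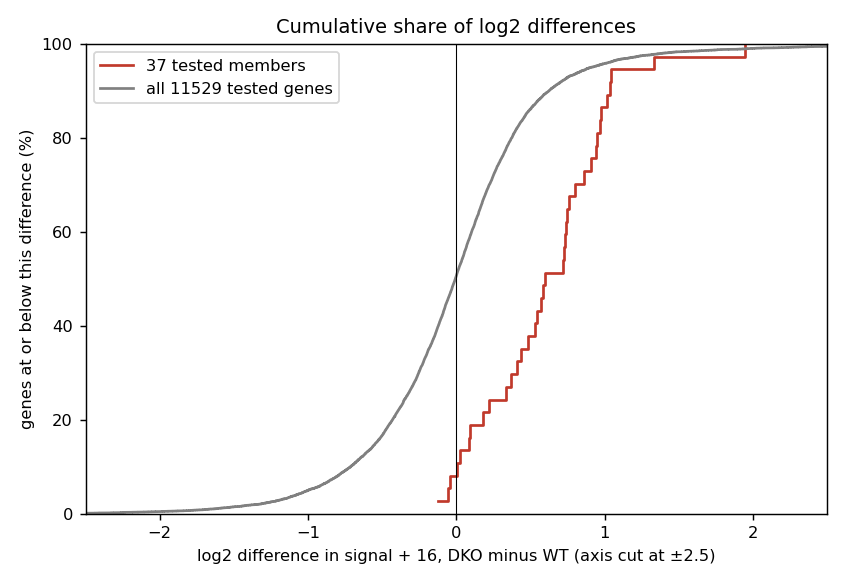
Cumulative share of genes, in percent, at or below each log2 difference (x axis, DKO minus WT) for the 37 tested genes of the list and for all 11529 tested genes. The curve of the list lies to the right of that of all genes for most of its course, with medians of 0.60 and -0.01.

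In serine synthesis 1 of 3 enzymes rose. Psat1, the phosphoserine aminotransferase, had 8929, 8309 and 8741 signal units in DKO replicates 1 to 3, against 4140.1, 3936 and 5574 in WT replicates 1 to 3. All DKO arrays lay well above the highest WT array. The log2 difference was 0.94 ± 0.17 (SE, n = 3 arrays per group, limma adjusted p = 0.0196), a 1.92-fold rise on that scale. Its second probe set, at 0.83 ± 0.16, passed as well (adjusted p = 0.0260). Phgdh, the enzyme that commits carbon to serine, had 6639, 8623 and 12637 in DKO, against 6385, 11822 and 10780.4 in WT, and the groups overlapped fully. Its difference was -0.06 ± 0.26 (adjusted p = 0.953), with a 95% interval from -0.62 to 0.51, and its 3 other probe sets were at 0.07, 0.08 and -1.02, with adjusted p of 0.367 or more. Psph, the phosphatase that releases serine, had 1030.4, 1005 and 996 in DKO, against 565, 603 and 978 in WT. WT replicate 3 came close to the DKO arrays, and the difference of 0.53 ± 0.27 did not pass (adjusted p = 0.404).

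Among the folate enzymes the mitochondrial ones had the larger differences at the brightest probe set of each gene. Mthfd2, the mitochondrial dehydrogenase and cyclohydrolase of methylene-folate, had 1568, 1414 and 1582 in DKO, against 557, 788 and 480.1 in WT. The lowest DKO array was far above the highest WT array. It rose by a log2 difference of 1.33 ± 0.26 (adjusted p = 0.0272), which is 2.51-fold. A second Mthfd2 probe set was at 1.04 ± 0.36 and did not pass (adjusted p = 0.216). Shmt2, which splits serine to glycine in mitochondria, had 2651, 2651 and 2246 in DKO, against 1383, 778 and 1909.7 in WT. The groups were apart, the WT arrays were widely scattered, and 0.97 ± 0.29 did not pass (adjusted p = 0.146). Its 3 other tested probe sets were at 0.52, 0.94 and 1.70, all in the same direction, with adjusted p from 0.0555 to 0.459.

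Aldh1l2, which oxidises formyl-folate in mitochondria, was dim at 117, 106 and 115 in DKO, against 28.9, 78.7 and 41.2 in WT. It passed the filter through its DKO signals, since the WT mean of 49.6 is under the filter limit of 53.2, and its difference was 1.04 ± 0.46 (adjusted p = 0.329). Mthfd1l, the mitochondrial formate-releasing synthetase, was at 0.44 ± 0.27 (adjusted p = 0.497). The cytosolic enzymes Shmt1 and Mthfd1 were at 0.34 ± 0.23 and 0.08 ± 0.23 (adjusted p = 0.559 and 0.917). For Mthfd1l, Shmt1 and Mthfd1 the groups overlapped. Other probe sets of Mthfd1 were at 0.25 and 0.85, and the mean over its probe sets was 0.40, near Mthfd1l. Those of Shmt1 were at -0.57, 0.13 and 0.50, so the contrast depends on the probe set. The mitochondrial enzymes were not tested against the cytosolic ones.

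All 6 enzymes of asparagine synthesis and transamination were above 0, with a median log2 difference of 0.88. Bcat1, the cytosolic aminotransferase of branched-chain amino acids, had 1471, 1021 and 881 in DKO, against 155, 434 and 301 in WT. Every DKO array was far above the highest WT array. It rose by 1.94 ± 0.38 (adjusted p = 0.0287), or 3.84-fold, the largest difference among the 37 tested genes. A dim second probe set of Bcat1 gave 1.64 ± 1.00 (adjusted p = 0.499), and averaging the tested probe sets gave 1.79 (adjusted p = 0.167). Bcat2, its mitochondrial relative, was at 0.58 ± 0.42 (adjusted p = 0.575) and the groups overlapped.

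Got1, the cytosolic aspartate aminotransferase, had 1112, 1255 and 1407 in DKO, against 780.3, 671 and 434 in WT. Asns had 2832, 2832 and 1646 in DKO, against 1284, 1545 and 991 in WT. In both genes the groups were apart, and for Asns DKO replicate 3 lay near the highest WT array. The differences of 1.02 ± 0.28 for Got1 and 0.91 ± 0.27 for Asns did not pass (adjusted p = 0.109 and 0.135), and a second Asns probe set gave 1.05 ± 0.28 (adjusted p = 0.0981). Got2 and Gpt2, mitochondrial enzymes of aspartate and alanine, were at 0.72 ± 0.21 and 0.86 ± 0.35 with no overlap (adjusted p = 0.135 and 0.288). Aldh18a1, the first enzyme of proline synthesis from glutamate, had 698, 716 and 665 in DKO, against 313, 561 and 398 in WT (0.73 ± 0.30, adjusted p = 0.295). Of its 4 other tested probe sets 3 were above 0 and 1 was at -0.11. In transsulfuration, which turns homocysteine to cysteine, Cbs was at 0.00 ± 0.44 (adjusted p = 0.999) with overlapping groups. Cth, which completes that route, was too dim to be tested, with signals of 3.3 to 49.2 in DKO and 16.6 to 24.5 in WT.

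**Figure D4:**
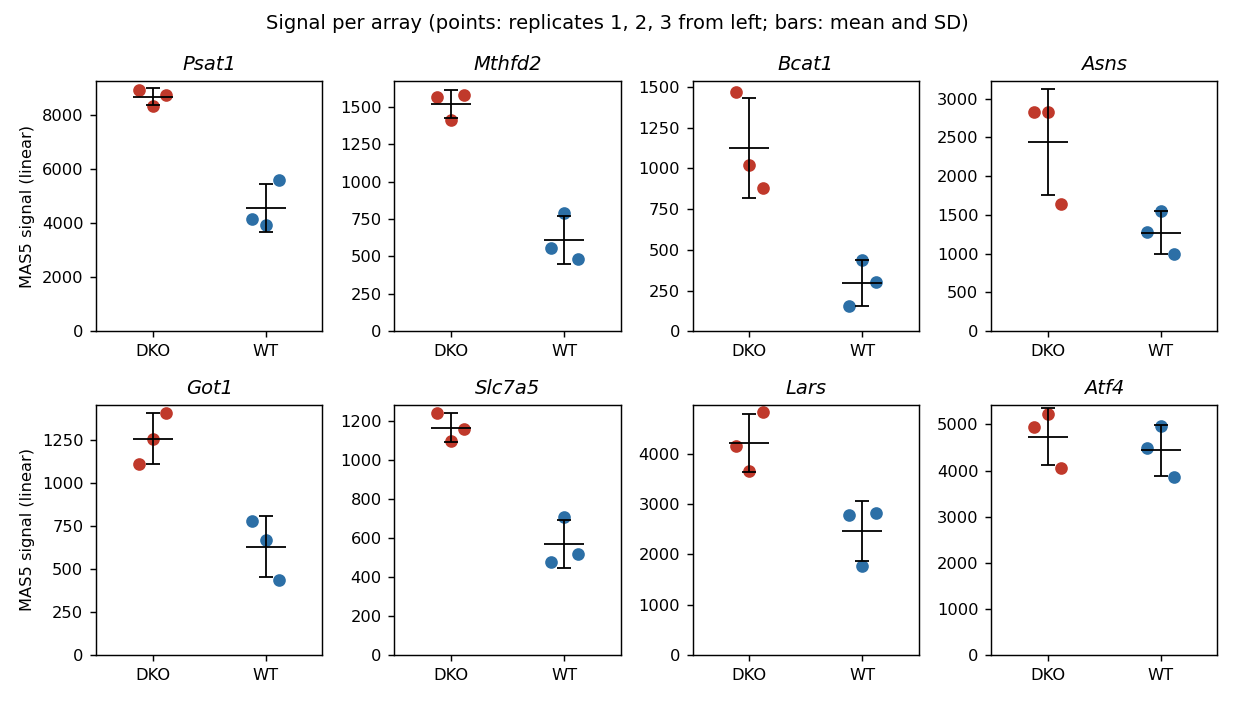
Linear signal per array for 8 of the genes, each panel with DKO left of WT; points are replicates 1, 2 and 3 from left to right, and bars give the mean and SD. In Psat1, Mthfd2, Bcat1, Asns, Got1, Slc7a5 and Lars all DKO points lie above all WT points, while in Atf4 the groups overlap.

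Among the listed transporters none passed. Of those tested, Slc7a5 and Slc3a2, the heavy chain it pairs with, stood highest at the brightest probe set of each gene. Slc7a5, the light chain that takes up large neutral amino acids such as leucine, had 1245, 1098 and 1158 in DKO, against 479.8, 710 and 518 in WT. Its groups were clearly apart, and 1.03 ± 0.26 missed the threshold (adjusted p = 0.0790). It passed without WT replicate 2 (adjusted p = 0.0432), when arrays were weighted by quality (adjusted p = 0.0418) and when the probe sets of each gene were averaged (adjusted p = 0.0339). Slc7a5 has only 1 probe set, so averaging left its difference at 1.03. In that setting the limma fit and the adjustment ran over genes instead of probe sets. Slc7a5 did not pass in the other 5 cases with an array left out (adjusted p up to 0.242), nor with the replicate block (0.107), no intensity trend (0.166) or no filter (0.115). Slc3a2 had 1060.1, 803 and 746 in DKO, against 632, 532 and 390.4 in WT (0.74 ± 0.29, adjusted p = 0.263).

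Slc7a11, the light chain that exchanges cystine for glutamate, did not pass the filter. At its brightest probe set it had 122, 68.7 and 83.7 in DKO, against 2.2, 38.6 and 0.6 in WT, and at the other one 91.1, 80.1 and 21.7 in DKO, against 5.8, 1.8 and 1.6 in WT. At both probe sets every DKO array lay above every WT array. When all probe sets were tested the differences were 2.05 ± 0.56 and 1.94 ± 0.47 (adjusted p = 0.178 and 0.129), on signals so low that their size depends on the offset of 16.

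The other transporters had smaller differences. Slc1a4, a carrier of alanine, serine and cysteine, was at 0.60 ± 0.29 (adjusted p = 0.381), and Slc7a1, which takes up arginine and lysine, at 0.37 ± 0.19 (adjusted p = 0.414). Slc38a2, a carrier of small neutral amino acids that is known to respond to amino acid loss, had 3514, 4104 and 3313 in DKO, against 3598, 3808 and 3817 in WT. The groups overlapped, the difference was -0.04 ± 0.17 (adjusted p = 0.944), and its 2 other probe sets were at -0.63 and -0.48. Slc1a5, the main glutamine carrier, was at 0.02 ± 0.49 at its brightest probe set, whose signals scattered from 304 to 1143 in DKO and from 397 to 1072 in WT. Its second probe set gave 312, 222 and 296 in DKO, against 118, 124 and 131 in WT, with no overlap (1.05 ± 0.37, adjusted p = 0.213). The probe sets of Slc1a5 thus disagree.

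All 11 tRNA synthetase genes, which charge tRNAs with their amino acids, were above 0, from 0.18 for Sars to 0.98 for Wars, with a median of 0.57, and 0 passed. In 6 of them (Lars, Wars, Yars, Mars, Nars and Tars, 54.5%) every DKO array lay above every WT array, as in 10.7% of all genes. Lars, the leucyl enzyme, had 4161, 3669 and 4829 in DKO, against 2789, 1770.4 and 2823 in WT (0.80 ± 0.22, adjusted p = 0.111). Wars, the tryptophanyl enzyme, which is also induced by interferon, had 576, 629.7 and 352 in DKO, against 210.5, 246 and 296 in WT (0.98 ± 0.34, adjusted p = 0.215). DKO replicate 3 was the lowest DKO array in Wars, near the highest WT array, and its 3 other probe sets were at 0.20 to 0.39. In Gars, Aars, Cars and Iars, at 0.57, 0.76, 0.73 and 0.54, WT replicate 2 reached into the DKO range. Yars, Tars, Mars (Mars1 in the annotation) and Nars were at 0.75 ± 0.34, 0.48 ± 0.24, 0.41 ± 0.24 and 0.22 ± 0.16 (adjusted p = 0.351, 0.384, 0.470 and 0.575). Sars, the seryl enzyme, was at 0.18 ± 0.24 with overlapping groups (adjusted p = 0.800), while its second probe set was at 0.72 ± 0.24 (adjusted p = 0.189).

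The pattern was then set beside Atf4 and its known output. Atf4 had 4953, 5218 and 4046 in DKO, against 4492, 4966 and 3852 in WT. The groups overlapped, and the difference was 0.09 ± 0.17 (adjusted p = 0.865), with a 95% interval from -0.29 to 0.48. Atf5, a relative of Atf4 and one of its targets, had 645, 753 and 263 in DKO, against 316, 186 and 279 in WT. DKO replicate 3 lay among the WT arrays, and 0.95 ± 0.42 did not pass (adjusted p = 0.334). Trib3, a pseudokinase that ATF4 and CHOP induce under stress, had 653, 499 and 344 in DKO, against 383, 641 and 601 in WT, with overlapping groups (-0.13 ± 0.34, adjusted p = 0.910). Chac1, a glutathione-degrading stress gene, was too dim and uneven to be tested, with 70.0, 239.6 and 31.3 in DKO, against 161, 4.1 and 1.2 in WT.

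A further 22 genes known as ATF4 output, none of them in the list of 41, gave 16 tested genes with 11 above 0 and a median of 0.31. In this set 2 rose (12.5%, against 1.08% of all genes) and 0 fell (against 0.633% of all genes). Stc2, a secreted glycoprotein gene induced by ER stress, had 449, 1069.6 and 818 in DKO, against 41.8, 10.5 and 71.7 in WT (3.87 ± 0.51, adjusted p = 0.00365). Ero1a, an oxidase of the endoplasmic reticulum, had 2192, 1829.7 and 1584 in DKO, against 752, 1044 and 842 in WT (1.07 ± 0.23, adjusted p = 0.0492). Both genes had no overlap between groups. Stc2 passed the filter through its DKO signals, since its WT mean of 41.3 is under the limit of 53.2, and its log2 difference depends on the offset, at 4.48 with 1 and 2.97 with 64. It passed whichever array was left out. Ero1a passed in 1 of 6 such cases, without WT replicate 2, with adjusted p up to 0.204 otherwise, and did not pass with the replicate block (adjusted p = 0.0740), an offset of 1 (0.0586), no filter (0.0798) or no intensity trend (0.164).

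The other 14 tested genes of that set did not pass. Of these, 9 were above 0: Sesn2, Eif4ebp1 and Ddit4, which restrain mTOR or translation, at 0.84 ± 0.63, 0.64 ± 0.27 and 0.57 ± 0.17, Jdp2 at 0.53, Cebpb at 0.50, Nupr1 at 0.38, Xpot at 0.24, Herpud1 at 0.22 and Slc6a9 at 0.02. The 5 below 0 were Ppp1r15a, a phosphatase subunit that ends the response, at -0.92 ± 0.48, Atf3 at -0.46, Ddit3, which encodes the death-related factor CHOP, at -0.44 ± 0.29, Cebpg, a partner of ATF4, at -0.18, and Vldlr at -0.11. Among the 14 the adjusted p was lowest for Ddit4, at 0.138. The set thus held values on both sides of 0.

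Tested genes of the list with the TGATGNAA core, 9 in all, had a median log2 difference of 0.60, with 8 above 0 and 0 past the threshold. The 21 tested genes with a promoter but no match had a median of 0.53, with 19 above 0 and 3 past the threshold. The other 7 tested genes have no promoter in the table, and their median was 0.80, with 7 above 0 and 0 past the threshold. Over all genes 1.08% rose. Every DKO array lay above every WT array in 4 of the 9, 11 of the 21 and 5 of the 7, against 10.7% of all genes. These sets were not tested against each other. Psat1, Mthfd2 and Bcat1 are all without a match in the 300 bases searched. Of the 12 tested sensors and factors upstream of ATF4, among them the kinases of its pathway and subunits of the exchange factor for initiation, 7 were above 0, the median was 0.04 and 0 passed. The smallest p there was that of Eif2b4, at 0.66 ± 0.38 (adjusted p = 0.469) with overlapping groups.

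**Figure D5:**
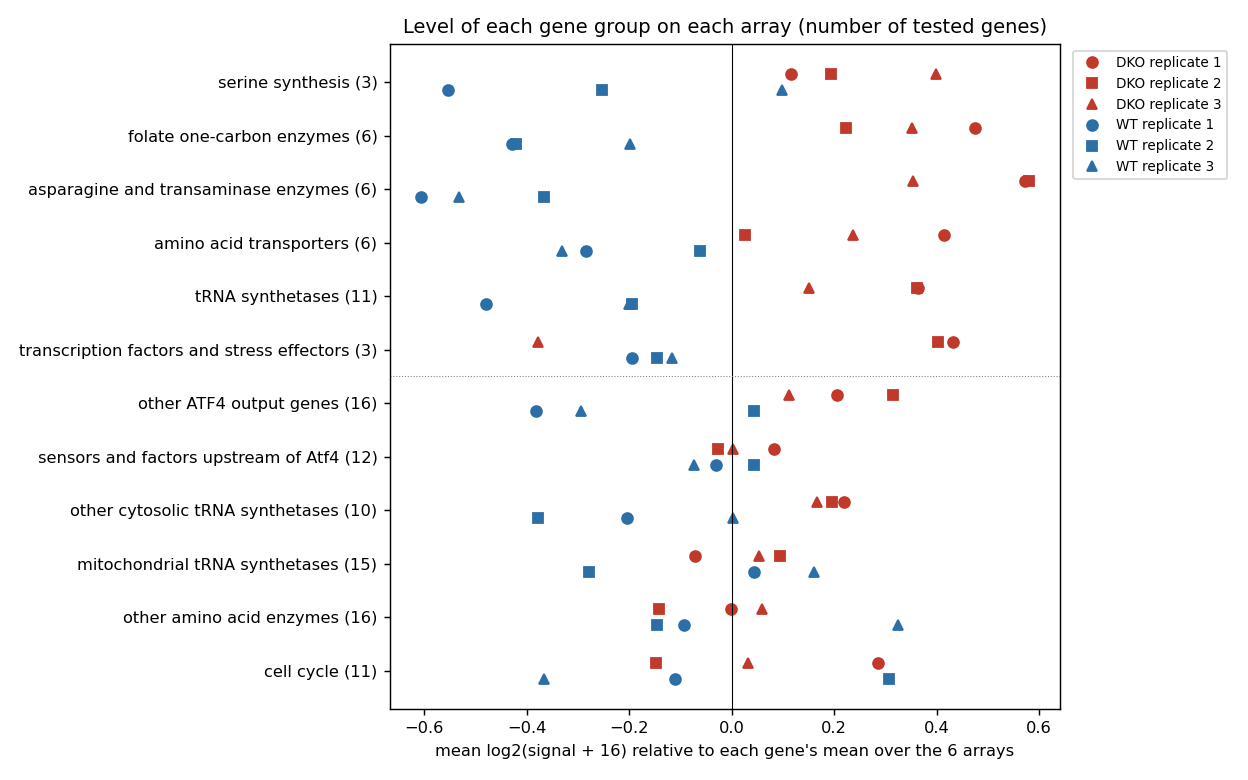
Mean log2(signal + 16) of each gene group on each array, relative to each gene's own mean over the 6 arrays (x axis); groups run down the page with their number of tested genes, DKO in red above WT in blue, and the dotted line parts the roles within the list from the other gene groups. In the first 5 roles all DKO points lie right of all WT points, while for the factors upstream of Atf4, the mitochondrial synthetases, the other amino acid enzymes and the cell cycle genes the colours mix.

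Other genes of the same pathways, which are not in the list, were then counted, with no test against the list. Of 10 other tested genes of cytosolic tRNA synthetases and their scaffold, all 10 were above 0, with a median of 0.39, 4 of the 10 with every DKO array above every WT array (as in 10.7% of all genes) and 0 past the threshold. Their smallest p was that of Eprs, the glutamyl-prolyl enzyme, at 0.46 ± 0.18 (adjusted p = 0.253). The mitochondrial synthetases, 15 tested, had 9 above 0, a median of 0.17 and 0 past the threshold. Ears2, which charges mitochondrial glutamate tRNA, had 163, 149.7 and 390.5 in DKO, against 539, 427 and 504 in WT (-1.14 ± 0.40, adjusted p = 0.211).

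For 19 other tested genes of the folate and methionine cycles 11 were above 0, the median was 0.24 and 0 passed. The smallest p was that of Mtap, which salvages methionine, at 0.75 ± 0.22 (adjusted p = 0.140). Mtap has 4 tested probe sets. Among the alternative settings with all arrays kept, which include the mean over these, its difference was as low as 0.13, with limma adjusted p up to 0.848. Among 16 other amino acid enzymes 7 were above 0 with a median of -0.04, 0 passed, and Glul, the glutamine synthetase, had the smallest p at -0.37 ± 0.15 (adjusted p = 0.313). Of 14 other amino acid transporters 10 were above 0 with a median of 0.29 and 0 passed. The Slc7 members among them, Slc7a6, Slc7a7 and Slc7a8, were at 0.82, 0.06 and 0.08. Slc38a9, a lysosomal arginine sensor of the mTOR pathway, had 514, 656 and 568 in DKO, against 1067, 1044 and 1093 in WT (-0.87 ± 0.24, adjusted p = 0.118). At that probe set all DKO arrays lay below all WT arrays, while the mean over its 7 probe sets was -0.19.

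Across arrays, the mean level of the 37 tested genes relative to each gene's own mean was 0.39, 0.31 and 0.20 in DKO replicates 1 to 3, against -0.45, -0.22 and -0.25 in WT replicates 1 to 3. Of the 37 genes, all 37 had their highest signal in a DKO array, 17 of them in DKO replicate 1, and 32 had their lowest in a WT array, 15 of them in WT replicate 1. The share over all genes was not counted. Genes with overlapping groups are included, such as Trib3, with at most 653 in DKO and 641 in WT. DKO replicate 3 was the lowest DKO array in 20 genes. For the transcription factors and stress effectors it was at -0.38, below all WT arrays, which lay from -0.20 to -0.12.

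Other measures moved with the genotype on the same arrays. Nr4a1 had 8.0, 22.4 and 33.8 in DKO, against 1110.5, 1269 and 816 in WT, and the Nr4a3 probe sets were too dim to check the labels. Of 10 tested mast cell, basophil and eosinophil genes all 10 were above 0 and 7 rose (70.0%, against 1.08% of all genes). Their list had a summed signal of 26249 to 32876 in DKO and 1567 to 12947 in WT. For T and NK cell genes 11 of 11 were above 0 and 7 rose (63.6%, against 1.08% of all genes), with sums of 10479.8 to 15372 in DKO and 927 to 1768 in WT. Among the genes that rose, Fcer1a, Ccr3, Cd3e and Gzmb had WT means of 10.2, 16.9, 13.3 and 19.2. These means are under the filter limit of 53.2, so the 4 genes passed the filter through their DKO signals. For plasma cell genes 5 of 7 were above 0 and 2 rose, Igha and Jchain (28.6%, against 1.08% of all genes). The sums were 19869.6 to 47521 in DKO and 3399 to 4614 in WT, and these 2 genes made up most of the DKO sums. Of the other plasma cell genes Prdm1 was at 1.09, Xbp1 at 0.88, Irf4 at 0.05, Mzb1 at -0.07 and Sdc1 at -0.74 with every DKO array below every WT array, and Tnfrsf17 and Derl3 were under the filter limit. Stem cell genes were above 0 in 1 of 10, and 6 of 10 fell, against 0.633% of all genes. Their sums were 18279 to 22196 in DKO and 37321 to 45159.8 in WT. The gene of the sort marker Sca1, Ly6a, was not analysed here. The part of these cell types in the differences of the metabolic genes was not tested.

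WT replicate 2 stood apart from the other WT arrays in lineage genes that the sort should remove. Its summed signals of neutrophil, erythroid and B lineage genes were 84312, 49607 and 9009.7, while the other WT arrays had at most 36969, 21152 and 2429 and the DKO arrays at most 51600.0, 16567 and 1985. Without WT replicate 2 the median of the listed genes was 0.63 and 37 of 38 tested genes were above 0. Cell cycle genes did not separate the groups: 8 of 11 tested genes were above 0 with a median of 0.19, 0 passed, and their sums were 37177 to 41966 in DKO and 34706 to 47803 in WT.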

How the data were processed

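RNA of 6 pools (3 DKO, 3 WT) was measured on Affymetrix arrays. The deposited values are linear intensity (MAS5 signal) per probe set, which the authors computed with MAS5 (version not stated), per the submitters' processing notes. Every array has a trimmed mean of 500 (2% left out at each end), and medians lay from 91.7 to 123. The authors' scaling was kept. Depth does not apply to arrays, and their number limits the precision. Columns were matched to labels by sample, with 0 other columns. The labels name no batch. Labels call the replicates biological and the pools independent.

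Of 45101 probe sets 64 controls were left out. Of the remaining 45037, 34945 have 1 gene symbol in the platform annotation, 932 several and 9160 are unnamed there; 34741 matched RefSeq GRCm38.p6 by gene identifier, which altered 0 symbols. The scale is log2(signal + 16). Probe sets in the dimmest 40% by their mean (under about 53.2 signal units) were dropped, which left 27022 for the two-sided test of DKO against WT in limma 3.58.1 (R 4.3.3), by lmFit and eBayes with an intensity trend and no block. P-values were adjusted by Benjamini-Hochberg across those 27022, with a threshold of 0.05, and "rose" and "fell" are used only past it. The offset of 16 makes folds of dim genes too small. A gene is given by its brightest probe set, which made 11529 genes. Of 39 other tested probe sets of 23 listed genes, 35 had the same sign and 4 the opposite one. Untested genes are given from a fit without the filter.

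The 41 genes, the companion and marker lists and the tests were chosen with earlier results of these data known, and no test was run on a list. Named are all 41 genes, with full values for those past the threshold, for Atf4, Asns, Chac1 and Trib3 and for the 2 smallest p per role; in each companion list up to 3 past the threshold or else the smallest p; others were picked after their values were seen. Promoters and gene starts are RefSeq's (GRCm38.p6); no build is stated for the array design. The fit was tested on simulated arrays. As alternatives, the offset was set to 1 or 64, the filter dropped or raised to 60%, arrays were quantile normalized, median centred or weighted, the trend was removed, replicate numbers became a block, single arrays were left out, and the threshold was 0.10; further ones were the mean over probe sets, and the core TGATGCAA. Plots used matplotlib 3.10.9 (Python 3.11.15).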

Additional observations from a re-analysis of the deposited data

How the results depend on the processing

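The 3 rises among the listed genes were not stable in call, while the direction of the list was. The number of risen genes was 3 with pseudocounts of 1 or 64, with a 60% filter, with quantile normalization, with median centring and with the mean over probe sets, 2 with no filter, 4 with array quality weights and 4 at a threshold of 0.10, but 0 without an intensity trend and 1 with the replicate block (Psat1), and 0 to 4 with an array left out. The count that fell was 0 in every setting run. The number above 0 lay between 32 of 35 or 37 and 37 of 38 or 40, and the median between 0.52 and 0.72 with an array left out (0.53 to 0.70 in the other settings). All genes past the threshold numbered 117 with no filter, 40 without an intensity trend, 308 with array quality weights, 385 at a threshold of 0.10 and 53 to 268 with an array left out, against 197. Median centring shifts each array by 1 constant, so every gene moved by the same 0.11, and the list median to 0.70. It could not move the list relative to all genes. Quantile normalization, which could, moved the median of all genes by 0.04 and that of the list from 0.60 to 0.68.

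With single arrays left out Psat1 passed 2 of 6 times (0.85 to 1.10), Mthfd2 in 1 (1.18 to 1.53) and Bcat1 in 2 (1.56 to 2.26), with adjusted p up to 0.0995, 0.127 and 0.148. Genes near 0 changed sign: Phgdh was at 0.051 with median centring and between -0.33 and 0.16 with an array left out, Slc38a2 at 0.064 with median centring and -0.13 to 0.022, and Trib3 at 0.020 with array quality weights and -0.35 to 0.11. With an array left out Mthfd1 ran from -0.13 to 0.33, Cbs from -0.21 to 0.17, Atf4 from -0.0035 to 0.20 and Slc1a5 from -0.37 to 0.61.

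Same-numbered deviations from the group means correlated at 0.142, -0.0306 and 0.0531, and 3 of 6 arrays correlated best with their own number. These values are too few to tell if same-numbered arrays share a source of variation. The main fit used no block. With the replicate block the adjusted p was 0.0222 for Psat1, 0.0527 for Mthfd2 and 0.0598 for Bcat1. Signals near the filter limit carry little information on the size of a change, which holds for Slc7a11, Chac1, Cth and Aldh1l2 and for the WT signals of Stc2.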
